A study of Homo sapiens with 4 samples.

Results

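The 34 tight junction genes described here were taken from a list of gene names, and are 34 of the 20163 protein-coding genes of the GENCODE annotation on hg19. They encode 20 claudins, 3 MARVEL proteins, 4 immunoglobulin-like adhesion proteins, 4 plaque scaffolds and 3 polarity proteins. A gene was called marked in a cell line when an H3K27ac peak overlapped the 1 kb on either side of any of its transcript starts. Distal peaks of a gene were those within 50 kb of the gene body and more than 1 kb from every protein-coding transcript start.

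Tight junctions seal the space between neighbouring epithelial cells and separate the apical from the basolateral membrane. Claudins form the paracellular barrier or its ion-selective pores, occludin and its relatives sit in the same strands, and scaffolds such as ZO proteins and cingulin tie the strands to actin. Polarity proteins of the PAR and Crumbs complexes position the junction along the cell side. Acetylation of histone H3 at lysine 27 (H3K27ac) marks active promoters and enhancers, so a promoter peak shows where that mark was found and does not measure RNA or protein.

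H3K27ac ChIP-seq, in which chromatin carrying the mark is precipitated with an antibody and sequenced, was made from 4 established human cancer cell lines with 1 library per line. COLO-205 is a colon cancer line grown in RPMI, DU-145 a prostate cancer line grown in Eagle minimal essential medium, and OVCAR-3 and SKOV-3 are ovarian cancer lines grown in RPMI 1640 and McCoy's 5a medium. All media were supplemented with FBS, no line was treated, and the lines had been given by other laboratories. With 1 library per line, a difference between lines has no replicate check and cannot be told apart from a difference between libraries.

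The libraries differed in yield. The list of COLO-205 held 85576 peaks, with 75468 for DU-145, 76093 for OVCAR-3 and 14001 for SKOV-3, and the numbers of tags recovered from the peak values were about 29800000, 36000000, 34200000 and 22400000 in the same order. A peak absent from a list did not pass the q-value threshold of 0.001 in that library, which is not the same as absence of the mark. The SKOV-3 list held 65 peaks on chromosome 7, where 5.25% of 933 genes were marked, and CLDN3, CLDN4, CLDN12 and CLDN15 lie on that chromosome. Of general epithelial genes, KRT8, KRT18 and KRT19 were marked in all 4 lines, and CDH1 and EPCAM in each line but SKOV-3. Read against the 60.5% of all protein-coding genes marked in OVCAR-3, 59.8% in DU-145, 51.1% for COLO-205 and 31.6% for SKOV-3, the tissue genes gave the following counts. Of 7 colon genes, COLO-205 marked 4, DU-145 and OVCAR-3 marked 1 each and SKOV-3 marked 0. The prostate genes did not single out DU-145, since 2 of 6 were marked in it, with KLK3 unmarked, and also 2 in COLO-205 and 2 in OVCAR-3. Of 6 ovarian genes, OVCAR-3 marked 6, COLO-205 marked 4, DU-145 marked 3 and SKOV-3 marked 2, which in SKOV-3 is 33.3% and near its share of all genes. The leukocyte genes PTPRC and CD3E were marked in no line, 1 of 4 mesenchymal genes was marked in COLO-205 and 2 in each other line, and of the endothelial genes CDH5 was marked in DU-145 alone and VWF in none.

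The promoters of 5 members that were marked in COLO-205, DU-145 and OVCAR-3 and not in SKOV-3 are shown because this pattern held the most members. They are among the 8 with the highest −log10 q of the members with that pattern or with a peak in 1 line. Each is the 250 bases before the canonical transcript start, read 5′ to 3′ on the strand of the gene from the GRCh37 assembly, which has the hg19 coordinates of the peaks. Capitals mark the letters of 3 motifs found on either strand, namely CACCTG, the E-box bound by ZEB1 and SNAI repressors (read as CAGGTG on the other strand), AACCNGTT, the site of Grainyhead-like factors, and TGANTCA, the site of AP-1. The windows are chr1:151483613-151483862 (plus strand) for CGN, chr7:73245076-73245325 (plus strand) for CLDN4, chr5:68710693-68710942 (plus strand) for MARVELD2, chr17:7165798-7166047 (minus strand) for CLDN7 and chr5:68788367-68788616 (plus strand) for OCLN.
CGN: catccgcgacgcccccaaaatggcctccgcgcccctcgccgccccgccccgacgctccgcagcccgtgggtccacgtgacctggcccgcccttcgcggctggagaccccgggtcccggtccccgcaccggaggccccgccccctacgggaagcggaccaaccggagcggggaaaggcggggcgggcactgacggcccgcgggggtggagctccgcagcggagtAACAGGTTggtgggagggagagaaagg
CLDN4: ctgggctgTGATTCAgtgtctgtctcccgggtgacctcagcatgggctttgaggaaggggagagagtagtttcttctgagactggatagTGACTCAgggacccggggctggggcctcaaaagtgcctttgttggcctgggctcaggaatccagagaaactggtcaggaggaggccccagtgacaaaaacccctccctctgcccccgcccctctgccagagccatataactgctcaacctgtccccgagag
MARVELD2: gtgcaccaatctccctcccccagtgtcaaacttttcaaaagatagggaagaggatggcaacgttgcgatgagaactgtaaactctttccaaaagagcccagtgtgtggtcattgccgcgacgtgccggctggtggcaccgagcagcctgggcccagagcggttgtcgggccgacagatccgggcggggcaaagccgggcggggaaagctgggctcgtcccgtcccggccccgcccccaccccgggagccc
CLDN7: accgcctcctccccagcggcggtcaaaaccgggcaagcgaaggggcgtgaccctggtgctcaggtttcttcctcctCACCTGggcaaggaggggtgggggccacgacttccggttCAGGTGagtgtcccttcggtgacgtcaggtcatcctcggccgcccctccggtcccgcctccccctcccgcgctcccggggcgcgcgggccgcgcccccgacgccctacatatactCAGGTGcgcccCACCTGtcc
OCLN: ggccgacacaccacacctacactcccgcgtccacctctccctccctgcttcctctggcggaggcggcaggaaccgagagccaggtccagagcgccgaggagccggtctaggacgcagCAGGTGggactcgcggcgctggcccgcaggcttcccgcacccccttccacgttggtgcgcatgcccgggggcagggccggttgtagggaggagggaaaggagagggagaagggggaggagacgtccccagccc
Letters for CACCTG were present in 9 of 34 member promoters (26.5%) and in 17.3% of 19881 protein-coding promoters of the same length. CLDN7 held the most copies, 4. PATJ, 1 of these 9, was marked in all 4 lines, and CLDN8 and CLDN19 in none. CGN was the 1 member with AACCNGTT, which 1.28% of all promoters held. CLDN4 held TGANTCA in 2 places and CLDN15 in 1, against 4.69% of all promoters. The HNF1 site and GCGTGGGCG, the site of EGR1, were in no member and in 0.0704% and 1.11% of all promoters. These are matches of letters in a window and not measured binding sites. The peaks covered the printed windows only in part. Of its 250 bases MARVELD2 had 0, 27 and 0 in peaks of COLO-205, DU-145 and OVCAR-3. In the same order CGN had 0, 0 and 126, CLDN4 46, 76 and 117, CLDN7 132, 250 and 39, and OCLN 0, 250 and 250.

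With all deposited peaks OVCAR-3 marked the most tight junction genes, and SKOV-3 marked the fewest. Of the 34 members, 19 were marked in COLO-205 (55.9%, against 51.1% of all protein-coding genes), 22 in DU-145 (64.7% against 59.8%), 24 in OVCAR-3 (70.6% against 60.5%) and 4 in SKOV-3 (11.8% against 31.6%). In COLO-205, DU-145 and OVCAR-3 the share of members lay 4.76 to 10.1 percentage points above that of all genes, and in SKOV-3 it lay 19.8 points below. The lead of OVCAR-3 was not seen at stricter thresholds: DU-145 and OVCAR-3 marked 22 each at a −log10 q of at least 5, and 19 against 18 at a −log10 q of at least 10. At the latter threshold the OVCAR-3 share fell below that of all genes (52.9% against 55.3%), as did that of DU-145 when only canonical starts were scored (52.9% against 56.7%). Most members fell into 4 patterns. There were 10 members marked in COLO-205, DU-145 and OVCAR-3 only (29.4% against 13.0% of all genes), 7 in DU-145 and OVCAR-3 only (20.6% against 9.98%), 4 in all 4 lines (11.8% against 25.2%) and 6 in none (17.6% against 25.0%). The remaining 7 were marked in COLO-205 only (CLDN5, CLDN15 and CLDN18), in OVCAR-3 only (CLDN3 and CLDN9), in COLO-205 and DU-145 (CLDN23) or in COLO-205 and OVCAR-3 (CLDN10). No member was marked in SKOV-3 without being marked in the other 3 lines.

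**Figure D1:**
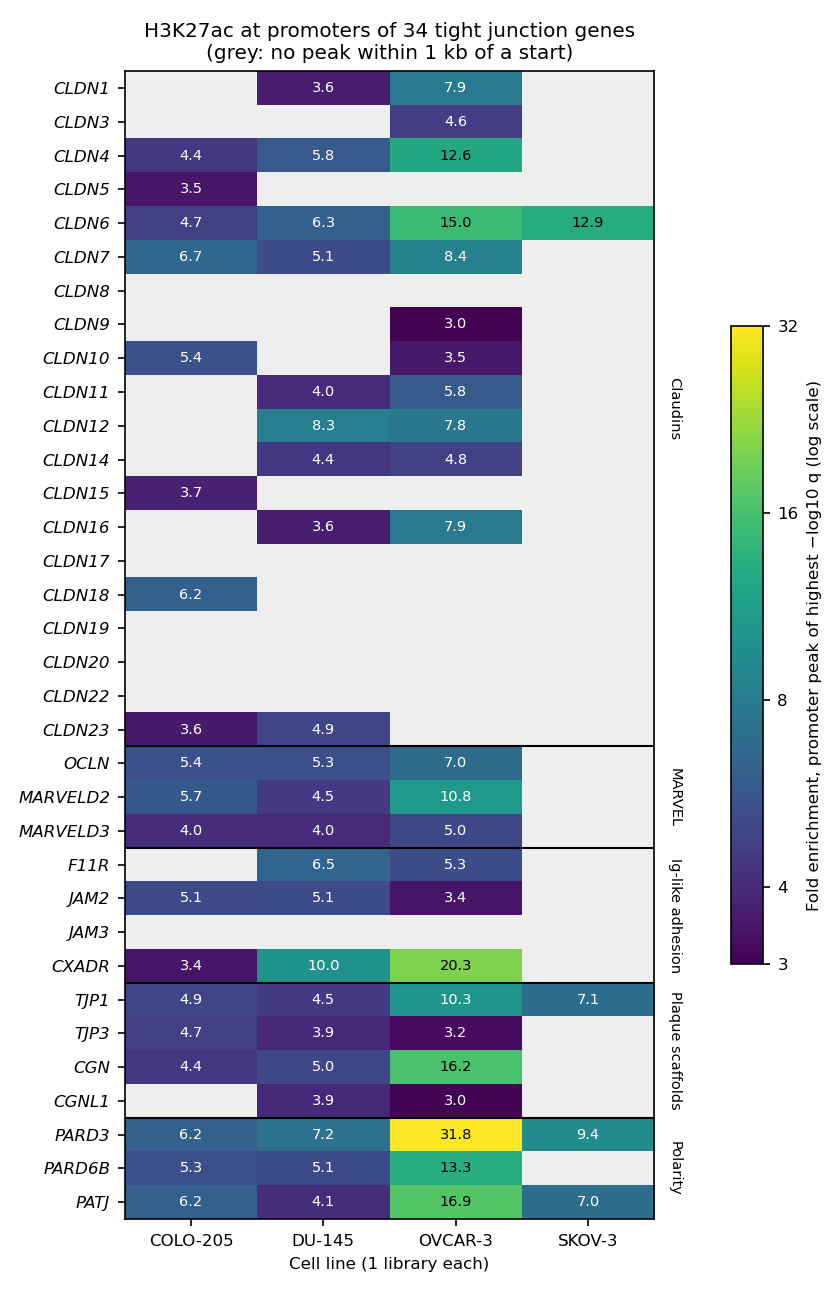
Fold enrichment over the local background of the promoter peak with the highest −log10 q at each tight junction gene (rows, in groups by role) in each cell line (columns, 1 library each), on a log colour scale, with grey where no peak lay within 1 kb of a transcript start. The SKOV-3 column is grey for 30 of 34 genes, and the highest value is 31.8 at PARD3 in OVCAR-3.

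The ovarian lines differed at 20 members. OVCAR-3 marked 20 members (58.8%) that SKOV-3 did not, against 30.3% of all genes, and SKOV-3 marked 0 that OVCAR-3 did not, against 1.45%. Because the SKOV-3 list is shorter, marking was also scored with the 14001 peaks of highest −log10 q in every library. COLO-205 then marked 12 members (35.3% against 21.8% of all genes), DU-145 13 (38.2% against 37.8%), OVCAR-3 13 (38.2% against 37.9%) and SKOV-3 its 4 (11.8% against 31.6%), and 9 members were marked in OVCAR-3 and not in SKOV-3 (26.5% against 13.0% of all genes). With the peaks of the other lists scaled to the tag number of SKOV-3, 18 members were marked in OVCAR-3 and not in SKOV-3 (52.9% against 29.7%). Leaving out the 4 genes of chromosome 7, SKOV-3 marked 4 of 30 members (13.3% against 32.8% of the genes on the other chromosomes).

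**Figure D2:**
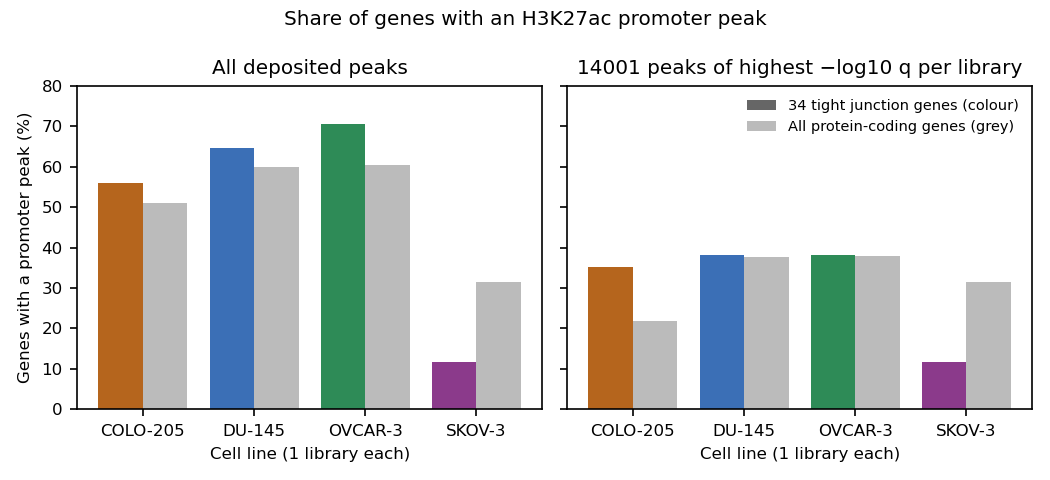
Percentage of genes with an H3K27ac peak within 1 kb of a transcript start in each cell line (1 library each), for the 34 tight junction genes (coloured bars) and for all protein-coding genes (grey bars), with all deposited peaks on the left and the 14001 peaks of highest −log10 q of each library on the right. SKOV-3 is the line in which the coloured bar lies below the grey bar in both panels, at 11.8% against 31.6%.

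Claudins were marked in a smaller share than all genes in every line, though narrowly so in OVCAR-3. CLDN3, CLDN4, CLDN12 and CLDN15 lie on chromosome 7, where the SKOV-3 list held few peaks. Of the 20 claudins, OVCAR-3 marked 11 (55% against 60.5% of all genes), DU-145 marked 9 (45% against 59.8%), COLO-205 marked 8 (40% against 51.1%) and SKOV-3 marked 1 (5% against 31.6%). The higher share of members than of all genes in COLO-205, DU-145 and OVCAR-3 was therefore not seen among the claudins. Where a gene had several promoter peaks in a line, the one with the highest −log10 q is called its strongest and its fold is given, although another peak may have a higher fold. CLDN4 and CLDN7 were marked in all lines but SKOV-3. CLDN4, a sealing claudin of many simple epithelia and a receptor for Clostridium perfringens enterotoxin, had its strongest promoter peak at fold 4.36 in COLO-205, 5.83 in DU-145 and 12.6 in OVCAR-3, with pileups of 67 tags (95% Poisson interval 51.9 to 85.1), 64 (49.3 to 81.7) and 116 (95.9 to 139). These intervals cover counting error only. The OVCAR-3 peak lay at chr7:73244070-73245192 on hg19, with its summit in an exon 313 bp from the canonical start, and the DU-145 peak at chr7:73242415-73242792 had its summit in an intron, 97 bp from another start of the gene. Peaks at both places were present in all 3 lines, since OVCAR-3 also had one at chr7:73242420-73242697 (fold 6.21) and DU-145 one at chr7:73244843-73245151 (fold 3.38). CLDN7, another epithelial claudin, had values of 6.66 in COLO-205, 5.14 in DU-145 and 8.42 in OVCAR-3, and the DU-145 peak covered 2581 bp at chr17:7164021-7166601. In each of these 3 lines the CLDN7 summit lay in an intron of the gene, and a peak was present at 8 of its 8 starts.

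CLDN6, an embryonic claudin, was the 1 claudin marked in all 4 lines, with fold 15.0 in OVCAR-3, 12.9 in SKOV-3, 6.27 in DU-145 and 4.71 in COLO-205. The SKOV-3 peak, at chr16:3070342-3070958, had a higher −log10 q than 99.5% of marked genes of that line. In all 4 lines, however, the summit was nearest to a start of TNFRSF12A, a TNF receptor gene that neighbours CLDN6, and it lay 2320 to 2416 bp from the canonical CLDN6 start. Only OVCAR-3 had another peak whose summit was nearest to a CLDN6 start, so without peaks that belonged to the neighbour CLDN6 was marked in OVCAR-3 alone and SKOV-3 marked 0 claudins. Under that count, which was added after the values were seen, SKOV-3 marked 3 members (8.82% against 27.9% of all genes). CLDN9, next to CLDN6 on chromosome 16, had a promoter peak in OVCAR-3 alone, with fold 3.04 and a pileup of 36 tags (25.2 to 49.8) at chr16:3062895-3063186. That peak ranked at the 3.05 percentile of −log10 q among marked genes of the line, and the nearest peak in COLO-205 lay 2533 bp from the CLDN9 start.

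CLDN1, the main barrier claudin of the epidermis, and CLDN16, a cation-channel claudin of the kidney, start head to head and share 1 promoter peak, so their calls are not independent. This peak had fold 3.58 in DU-145 (chr3:190039584-190040213) and 7.91 in OVCAR-3 (chr3:190039662-190040253), and its summit was nearest to CLDN1 in both. In COLO-205 and SKOV-3 the nearest peak to a CLDN1 start was 69038 and 174686 bp away. CLDN16 also had a peak of its own in OVCAR-3, with fold 11.7. CLDN3, a sealing claudin, was marked in OVCAR-3 only, by a pair of peaks. The stronger, with fold 4.61 at chr7:73183000-73183887, overlapped the end of this short gene and had its summit 1426 bp from the start, and the other, with fold 3.63 at chr7:73184088-73184501, had its summit 194 bp from it. Nearest peaks to the CLDN3 start were at 3976 bp in COLO-205 and 16812 bp in DU-145, so both lines had acetylation outside its promoter window.

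CLDN11, CLDN12 and CLDN14 were marked in DU-145 and OVCAR-3. CLDN12, a widely expressed claudin, had fold 8.29 in DU-145 and 7.77 in OVCAR-3, at peaks that overlap around chr7:90032804-90033262. CLDN11, the claudin of myelin and of the blood-testis barrier, had 4.00 in DU-145 and 5.84 in OVCAR-3. CLDN14, a claudin of the inner ear and kidney, had the weak values 4.41 and 4.80, each from 18 tags (10.7 to 28.4), with the strongest peaks at different starts. OVCAR-3 also had a peak of fold 3.92 at chr21:37949225-37949595 that overlapped the DU-145 peak. CLDN1, CLDN11, CLDN16 and CLDN18 lie on chromosome 3, where the OVCAR-3 list held 2.61 times as many peaks per gene as its median autosome. On chromosome 21, which holds CLDN14, the ratio was 2.34 in DU-145 and 2.23 in OVCAR-3. Copy number was not analysed here, and its part in these counts was not tested.

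CLDN5, CLDN15 and CLDN18 were marked in COLO-205 alone. CLDN18, a claudin of stomach and lung epithelium, had fold 6.20 at chr3:137728637-137728910, with 28 tags (18.6 to 40.5). CLDN15, which forms sodium-permeable pores in the intestine, had 3.73 at chr7:100880519-100880762, with 29 tags (19.4 to 41.6). CLDN5, best known from endothelium, had 3.46, with 26 tags (17.0 to 38.1). All 3 peaks were narrow, from 244 to 349 bp, and none was among the 14001 strongest peaks of COLO-205. CLDN10, an ion-channel claudin, had fold 5.40 in COLO-205, with the summit 118870 bp from the canonical start at another start of the gene, and 3.54 in OVCAR-3, 363 bp from the canonical start. COLO-205 also had a peak of fold 4.48 there, at chr13:96204526-96205581, which overlapped that of OVCAR-3. COLO-205 held 9.87 times as many peaks per gene on chromosome 13, where CLDN10 lies, as on its median autosome. CLDN23 had 3.57 in COLO-205 and 4.92 in DU-145. CLDN8, CLDN17, CLDN19, CLDN20 and CLDN22 had no promoter peak in any line, and the nearest peak to the neighbouring genes CLDN8 and CLDN17 was at least 155739 bp away in all 4 lines.

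All 3 MARVEL proteins were marked in COLO-205, DU-145 and OVCAR-3 (against 51.1%, 59.8% and 60.5% of all genes) and none in SKOV-3 (against 31.6%), a group too small to set against these shares. OCLN encodes occludin, and its strongest promoter peak had fold 5.43, 5.34 and 6.96 in COLO-205, DU-145 and OVCAR-3, with 48 (35.4 to 63.6), 76 (59.9 to 95.1) and 82 (65.2 to 102) tags. MARVELD2 encodes tricellulin, found where 3 cells meet, and its values were 5.75, 4.50 and 10.8, from overlapping peaks that in COLO-205 lay at chr5:68710992-68711627. MARVELD3 had 4.05, 4.02 and 5.03, the lowest of the group, and was not marked in any line among the 14001 strongest peaks. The OCLN peaks also overlapped in position across the 3 lines. In SKOV-3 the nearest peak lay 14703 bp from a MARVELD2 start, 58000 bp from an OCLN start and 85539 bp from a MARVELD3 start. The end of OCLN adjoins a duplicated stretch of chromosome 5, where the placement of reads is uncertain.

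MARVELD2 and OCLN lie in the same orientation, with OCLN beginning 77.2 kb after the canonical MARVELD2 start, and their surroundings differed between lines. From 60 kb before to 200 kb after the MARVELD2 start COLO-205 had 31 peaks, DU-145 had 25, OVCAR-3 had 5 and SKOV-3 had 2. In the stretch between both genes COLO-205 had 10 peaks, DU-145 2, and OVCAR-3 and SKOV-3 0 each. COLO-205 thus had 19 distal peaks at MARVELD2 and 13 at OCLN, DU-145 7 and 9 and OVCAR-3 0 at both. Placed among the marked genes of its own line, the fold of the OCLN promoter peak stood at the 74.4 percentile in COLO-205, the 65.7 percentile in DU-145 and the 46.1 percentile in OVCAR-3, and that of MARVELD2 at the 79.4, 45.4 and 76.1 percentiles. Where the windows of both genes overlap, a peak was counted for each. The 2 SKOV-3 peaks were at the neighbouring starts of RAD17, TAF9 and AK6, with fold 9.80, and inside MARVELD2, with fold 5.40 and 13 tags.

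**Figure D3:**
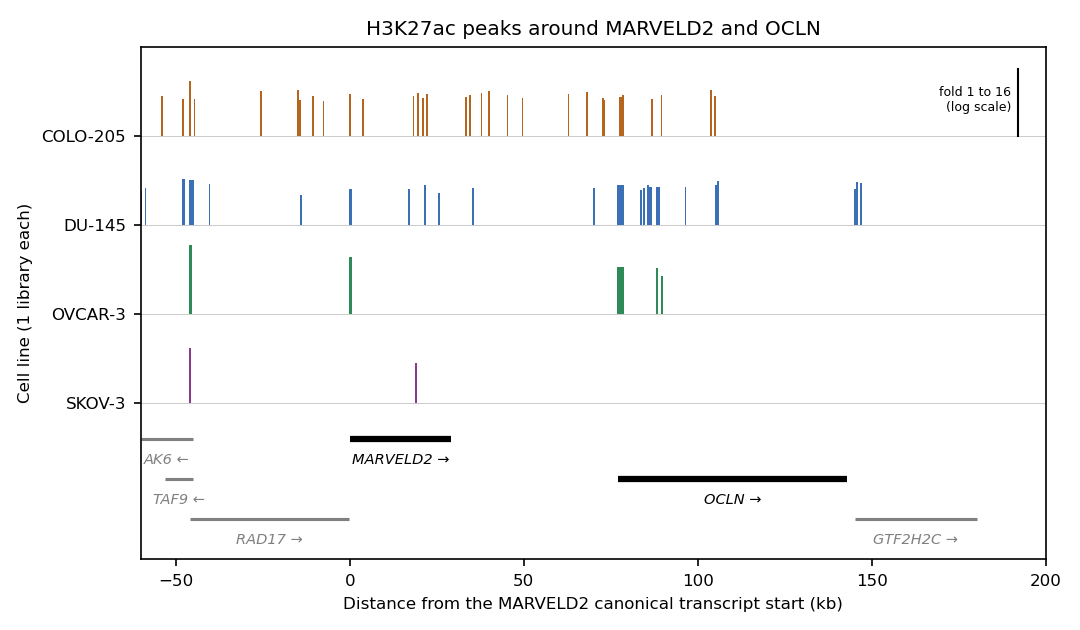
H3K27ac peaks of the 4 cell lines around MARVELD2 and OCLN (black bars, with the direction of transcription), by distance in kb from the canonical MARVELD2 start; the height of each peak is its fold enrichment on a log scale, and peaks under 0.5 kb are drawn 0.5 kb wide. All lines have a peak 46 kb before MARVELD2, at neighbouring genes in grey, while peaks at both promoters are present in COLO-205, DU-145 and OVCAR-3 and absent from the SKOV-3 list.

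Of the immunoglobulin-like adhesion proteins, CXADR had the highest fold in DU-145 and OVCAR-3. It encodes the coxsackievirus and adenovirus receptor, a junctional adhesion protein, and had fold 3.43 in COLO-205, 10.04 in DU-145 and 20.3 in OVCAR-3, with 25 (16.2 to 36.9), 103 (84.1 to 125) and 155 (132 to 181) tags. The DU-145 and OVCAR-3 peaks were broad, at 1743 and 1555 bp, and the COLO-205 peak at chr21:18885405-18885768 was 364 bp wide. In DU-145 its −log10 q was higher than that of 97.2% of marked genes, and in COLO-205 higher than that of 7.58%. F11R encodes JAM-A and was marked with fold 6.50 in DU-145 and 5.29 in OVCAR-3. In COLO-205 its nearest peak was 1594 bp from a start, just outside the window, and in SKOV-3 7226 bp. JAM2 was marked weakly in 3 lines, with 5.06 in COLO-205, 5.14 in DU-145 and 3.43 in OVCAR-3 from 17 to 24 tags, and its OVCAR-3 peak ranked at the 0.246 percentile of −log10 q. JAM3 was marked in no line, and its nearest COLO-205 peak lay 1064 bp from a start.

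Among the plaque scaffolds, TJP1 was marked in all 4 lines and CGN had the highest fold, in OVCAR-3. TJP1 encodes ZO-1, the scaffold that links claudins and occludin to actin, and had fold 10.3 in OVCAR-3, 7.08 in SKOV-3, 4.94 in COLO-205 and 4.49 in DU-145. The 4 peaks overlap, and their summits lay in an exon 155 to 212 bp from the canonical start. In SKOV-3 the peak was at chr15:30114326-30114664, with 61 tags (46.7 to 78.4). CGN encodes cingulin, a link to myosin and microtubules, and had 4.41 in COLO-205, 4.99 in DU-145 and 16.2 in OVCAR-3. Its OVCAR-3 peak, at chr1:151484791-151486898, was 2108 bp wide and had its summit 1721 bp inside the gene. A second OVCAR-3 peak, of fold 10.5 at chr1:151483845-151484643, had its summit 212 bp from the start, near those of the COLO-205 and DU-145 peaks at 244 and 237 bp, and DU-145 also had a peak at the inner place (chr1:151484852-151485940). TJP3, which encodes ZO-3, had 4.69, 3.90 and 3.22 in COLO-205, DU-145 and OVCAR-3, with the DU-145 peak at another start 20132 bp from the canonical one. CGNL1 encodes paracingulin and had the weak values 3.90 in DU-145 and 3.04 in OVCAR-3.

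The 3 polarity genes were all marked in COLO-205, DU-145 and OVCAR-3 (against 51.1%, 59.8% and 60.5% of all genes), and 2 of them in SKOV-3 (against 31.6%). PARD3, the scaffold of the PAR complex, had fold 31.8 in OVCAR-3, 9.42 in SKOV-3, 7.24 in DU-145 and 6.21 in COLO-205, with 210 (183 to 240), 51 (38.0 to 67.1), 69 (53.7 to 87.3) and 39 (27.7 to 53.3) tags. The OVCAR-3 peak covered 2589 bp at chr10:35102584-35105172 and its −log10 q of 240 was higher than in 98.7% of marked genes. PATJ, a scaffold of the Crumbs complex, had fold 16.9 in OVCAR-3, 7.04 in SKOV-3, 6.18 in COLO-205 and 4.09 in DU-145, and the OVCAR-3 peak lay at chr1:62207752-62209068. PARD6B, an adaptor for atypical protein kinase C, had 5.35, 5.12 and 13.3 in COLO-205, DU-145 and OVCAR-3 and no promoter peak in SKOV-3, where the nearest peak was 29441 bp away. The PARD6B peak in OVCAR-3, with a −log10 q of 173 and 234 tags, had its summit 2 bp from a start.

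Where members were marked, the median fold and the median −log10 q lay above those of all marked genes in each line. The median fold of the strongest promoter peak was 4.94 over 19 members in COLO-205 (4.45 over all marked genes), 4.96 over 22 in DU-145 (4.65), 7.84 over the 24 of OVCAR-3 (7.39) and 8.25 over the 4 of SKOV-3 (5.25). The fold is relative to the background of its own library and is not scaled between libraries. Placed among the marked genes of the same line, the median member stood at the 69.1 percentile of −log10 q in COLO-205, the 57.0 percentile in DU-145, the 53.0 percentile in OVCAR-3 and the 87.8 percentile in SKOV-3. The SKOV-3 value rests on 4 members, of which CLDN6 (99.5) has its summit nearest to TNFRSF12A. Members passed into these medians only by having a peak, so the medians describe the marked members and not all 34.

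Members with no promoter peak had a lower median CpG content than the others. CpG content was measured as the observed number of CpG in the 250 bases upstream of the canonical start over the number its base composition predicts. The 6 members marked in no line had a median of 0.190, the 24 marked in 1 to 3 lines 0.741 and the 4 marked in all lines 0.701. Over all promoters the medians were 0.291, 0.777 and 0.874. JAM3 was the exception among the 6 unmarked members, with 0.787. Low ratios were also found at marked members: 8 members below 0.6 had a promoter peak in at least 1 line, with CLDN4 (0.185, marked in 3 lines) and CLDN16 (0.218, marked in 2) the lowest of them. The ratio was measured at the canonical start and a peak may lie at another: CLDN14 had no peak at its canonical start in any line, and CLDN16 had one there in OVCAR-3 only.

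Among the 21 members with a ratio of at least 0.6, 15 were marked in COLO-205 (71.4% against 64.0% of all promoters in that class), 18 in DU-145 and 18 in OVCAR-3 (85.7% in both, against 78.2% in both), and 4 in SKOV-3 (19.0% against 43.2%). Of the 13 members below 0.6, 6 were marked in OVCAR-3, 4 in COLO-205, 4 in DU-145 and 0 in SKOV-3, against 28.9%, 28.4%, 27.2% and 10.8% of all promoters. CLDN6, 1 of the 4 members marked in SKOV-3, had no peak at its canonical start there.

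**Figure D4:**
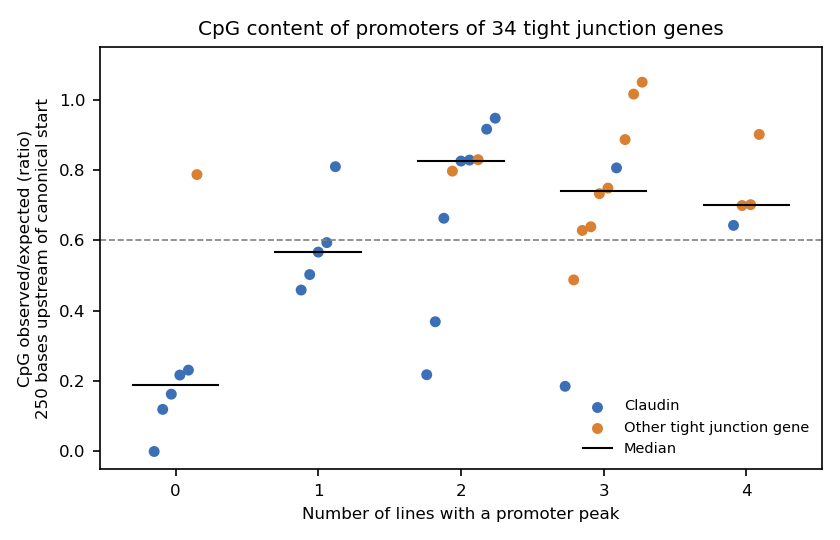
CpG observed/expected ratio in the 250 bases upstream of the canonical start of each tight junction gene (points, claudins in blue and other genes in orange) by the number of lines in which the gene had a promoter peak; black lines are medians and the dashed line is the ratio of 0.6. Of the 6 genes with no peak, JAM3 at 0.787 lies above the dashed line, and CLDN4 at 0.185 is the lowest gene marked in 3 lines.

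Distal acetylation varied widely among members, and different members led in different lines. Counted per gene, COLO-205 had 203 distal peaks of members, DU-145 had 238, OVCAR-3 had 257 and SKOV-3 had 13, which were 183, 233, 248 and 13 different peaks. In the same order of lines, the median member had 4, 1.5, 3 and 0, and the median of all protein-coding genes was 2, 2, 1 and 0. At least 1 distal peak was present at 26, 26, 23 and 8 members, against 73.6%, 63.4%, 59.2% and 21.8% of all genes. Members differ in length, from 1241 bp at CLDN17 to 705766 bp at PARD3, so longer genes had wider windows. Per 100 kb of window the member medians were 2.57, 1.05, 1.26 and 0 and those of all genes 1.48, 0.980, 0.802 and 0. The DU-145 median per member was not below that of all genes in other settings. It was 1.5 against 1 at a −log10 q of at least 5, and 1 against 1 with peaks less than 350 bp apart merged. With the 14001 peaks of highest −log10 q in every library, the counts per gene summed to 10, 25, 24 and 13. COLO-205 then had the fewest.

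CXADR and CGN carried the most distal peaks in DU-145. CXADR had 36 there, 19 in OVCAR-3, 5 in COLO-205 and 0 in SKOV-3, and in DU-145 this was 19.9 per 100 kb within 50 kb of the gene and 0.895 per 100 kb in the rest of the surrounding 1 Mb on either side. CGN had 57 distal peaks in DU-145, 21 in OVCAR-3, 5 for COLO-205 and 0 for SKOV-3, at 44.5 per 100 kb in DU-145 and 20.2 per 100 kb in its surroundings, so this region was dense as a whole. The strongest distal peak near CGN had fold 10.4 in DU-145 and 11.8 in OVCAR-3 and lay at the same place, chr1:151557328-151558288 in DU-145 and chr1:151557386-151558221 in OVCAR-3. F11R had 22 distal peaks in DU-145, 17 of them inside the gene, and 3, 1 and 1 in COLO-205, OVCAR-3 and SKOV-3.

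PARD3 and PARD6B each had 53 distal peaks in OVCAR-3. PARD3 had 42 of them inside the gene, at 6.58 per 100 kb against 3.05 in its surroundings, and it had 2 distal peaks in COLO-205, 9 in DU-145 and 3 in SKOV-3. PARD6B had 42.3 per 100 kb in OVCAR-3 against 27.3 in its surroundings, and COLO-205 had 14 distal peaks there, DU-145 had 18 and SKOV-3 had 2. The strongest of those in OVCAR-3, at chr20:49341651-49343349, had fold 15.4, above the 13.3 of the PARD6B promoter, and lay 4768 bp before the PARD6B start. Of the 4 lines COLO-205 had the most at CLDN10 with 40 (16.2 per 100 kb, against 12.4 in its surroundings on the dense chromosome 13) and at TJP1 and MARVELD2 with 19 each. At MARVELD2 the density was 14.7 per 100 kb against 2.16 in its surroundings. CLDN14 had 21 distal peaks in DU-145, 16 in OVCAR-3, 9 for COLO-205 and 2 for SKOV-3, and its strongest in OVCAR-3 had fold 18.2 beside a promoter fold of 4.80.

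**Figure D5:**
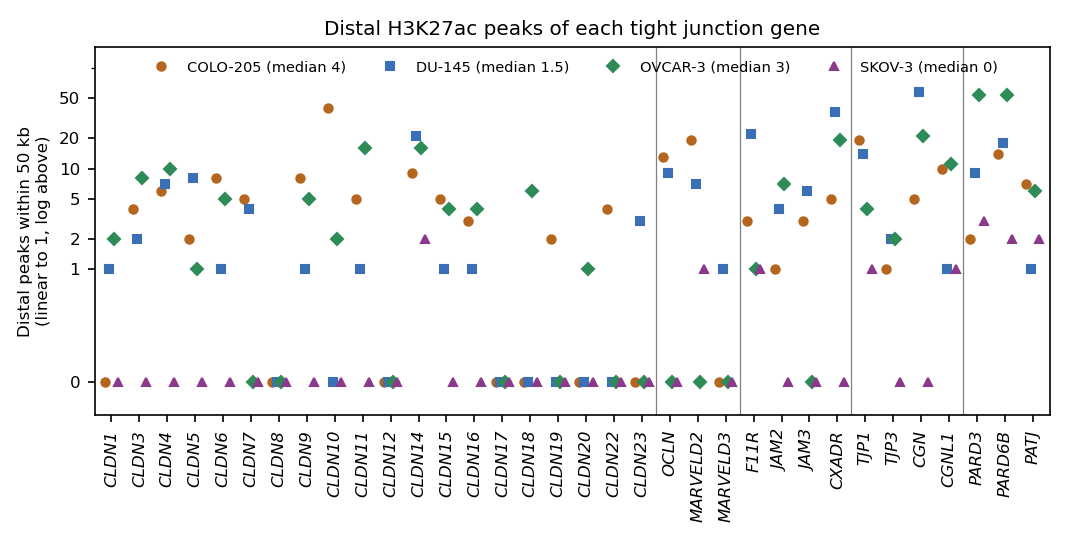
Number of distal H3K27ac peaks within 50 kb of each tight junction gene in each cell line (1 library each; axis linear up to 1 and logarithmic above), with vertical lines between the groups by role and the median of each line in the key. Counts reach 57 at CGN in DU-145 and 53 at PARD3 and PARD6B in OVCAR-3, and SKOV-3 does not exceed 3.

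Most distal peaks of members in COLO-205, DU-145 and OVCAR-3 were in 1 line only. An overlap of at least 1 base with a peak of another line was found for 42 of 183 distal peaks in COLO-205 (22.95%, against 15.9% of all its distal peaks), 83 of 233 in DU-145 (35.6% against 25.8%), 89 of 248 in OVCAR-3 (35.9% against 28.6%) and 7 of 13 in SKOV-3 (53.8% against 66.0%). These shares are of lists of unequal length and were not tested. Overlap with peaks of all of the other lines was found for 2, 2, 2 and 1 of them. This was not counted over all distal peaks, so it cannot be read as a trait of the members.

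Partners of the junction in adjacent complexes were also scored. The 26 genes of this list, chosen by function, encode polarity kinases and adaptors, nectins, cadherin and catenins, proteases and small GTPases. Of these, OVCAR-3 and DU-145 marked 25 each (96.2%, against 60.5% and 59.8% of all genes), COLO-205 marked 17 (65.4% against 51.1%) and SKOV-3 marked 10 (38.5% against 31.6%). In SKOV-3 the share of partners thus lay slightly above that of all genes, and the share of members below it. SKOV-3 also marked fewer partners than each of the other lines. There were 9 partners marked in all 4 lines (34.6% against 25.2%), among them CTNNA1 (alpha-catenin), the polarity kinase PRKCI and the GTPases CDC42 and RHOA. CTNNA1 had fold 22.8 in OVCAR-3, 14.1 in SKOV-3, 9.44 in COLO-205 and 8.01 in DU-145. CDH1, which encodes E-cadherin, had 6.03, 4.94 and 5.53 in COLO-205, DU-145 and OVCAR-3 and no promoter peak in SKOV-3. EPCAM had 7.07, 4.21 and 8.49 in those lines, and it had 3 distal peaks and no promoter peak in SKOV-3. CRB3, PRKCZ, NECTIN2, CTNNB1 and ST14 were likewise marked in all lines but SKOV-3, and AFDN in all but COLO-205. Marked in DU-145 and OVCAR-3 alone were PARD6A, MAGI1, MPDZ, SYMPK, NECTIN1, CTNND1 and RAB13, in COLO-205 and OVCAR-3 NECTIN4, and in DU-145 alone PARD6G.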

How the data were processed

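Reads had been aligned by the authors to hg19 using Bowtie2 2.1.0. MACS2 2.1.0.20150603 had then listed narrow peaks of each library with q-values below 0.001. The values of each deposited peak come from that caller and are not scaled between libraries: a score, the fold enrichment relative to local background, −log10 p and −log10 q. Merging of peaks within 350 bp is described in the methods and is not seen in the deposited lists, which were used as they stand. GENCODE v44 lifted to GRCh37 supplied genes and starts, where the authors name an earlier release, and all 34 members were matched by symbol. The tag pileup at each summit was recovered from fold enrichment and −log10 p within 0.001 on the −log10 scale, and its 95% interval is exact Poisson, for counting error only. Tag numbers follow from the lowest recovered background, 2700000000 genome positions and the narrowest peak. Peaks were assigned with Python 3.11.15, pandas 2.3.3, numpy 2.4.6 and scipy 1.17.1, figures were drawn with matplotlib 3.10.9, and the recovery was checked on simulated data. Each line had 1 library, so no difference between lines was tested with replicates, and shares are set beside those of all 20163 protein-coding genes. A Dixon screen for 1 line far from the other 3 gave ratios of 0.75 for members marked, 0.779 for their distal peaks and 0.677 for all genes marked, below the critical value of 0.829. With 1 value per line the screen has little power, so these ratios do not show that no line stands apart. The members, gene lists and alternatives were chosen with earlier results of these data known. Each member marked in at least 1 line was described with its values. Sequences were limited to the 8 members of highest −log10 q among those marked in exactly 1 line or in all lines but SKOV-3, with none from chromosome 8, and 5 of them are printed. A few list genes and sequences are not reported here. Of the endothelial markers, PECAM1 was not matched and not scored.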

Additional observations from a re-analysis of the deposited data

How the results depend on the processing

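Of 150 values recomputed under alternative settings, 130 stayed within 1.5 times the value reported and 20 did not. Some could not change, such as SKOV-3 marks with 14001 peaks, the whole of its list, so the tally does not measure stability. With the 14001 strongest peaks of every library, COLO-205 marked 12 members, DU-145 13 and OVCAR-3 13, 16 were marked in no line and 9 in OVCAR-3 and not in SKOV-3, the median number of distal peaks was 0 in COLO-205, 0 in DU-145 and 0 in OVCAR-3, and the median promoter fold in OVCAR-3 was 12.6. That setting and the next keep fewer peaks by construction, for all genes as for members. The share of all genes marked in no line was not counted under the alternative settings. With a −log10 q of at least 10, 12 members were marked in no line, and the distal medians were 0.5, 0.5 and 1.5 in COLO-205, DU-145 and OVCAR-3. With the 5′ end of each gene as its only start, 11 members were marked in no line, against 7 with the canonical start only. With distal peaks taken within 20 kb, the medians were 2 in COLO-205 and 1 in OVCAR-3, and within 100 kb they were 7 in COLO-205, 3.5 in DU-145 and 6 in OVCAR-3. Counting as distal all peaks outside the gene's own starts gave 6 in DU-145. Settings added after seeing the data (canonical starts only, summits nearest to the gene's own start, and leaving out members of chromosome 7 or chromosome 3) moved no count of members by more than 1.5 times. In SKOV-3 no member other than CLDN6, TJP1, PARD3 and PATJ was marked in any of the 11 settings of peaks, windows and starts, the reported one included. Of these only the 2 kb window could have added a mark in SKOV-3, so the others do not bear on this. No paired analysis was possible because each line has a single library. With 1 library per line, depth and peak yield cannot be told apart from the line.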

Other observations

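Promoters of genes for transcription factors that act on epithelial junction genes were also read. The 9 factors listed as activators include OVOL1 and OVOL2, although OVOL2 acts as a repressor of mesenchymal genes. Of these 9, COLO-205 marked 8 (88.9%, against 51.1% of all protein-coding genes) and OVCAR-3 marked 6 (66.7% against 60.5%). DU-145 marked 3 (33.3% against 59.8%) and SKOV-3 marked 0 (against 31.6%). GRHL1, a Grainyhead-like factor, had a promoter peak of fold 4.91 in COLO-205, 5.63 in DU-145 and 11.2 in OVCAR-3. GRHL2 had 11.3 in COLO-205 and 19.3 in OVCAR-3 and no promoter peak in DU-145 or SKOV-3, and GRHL3 had 5.21 in OVCAR-3 alone. ELF3, an epithelial ETS factor, had 3.23, 8.66 and 16.9 in COLO-205, DU-145 and OVCAR-3, and KLF4 had 3.79, 5.50 and 7.23. OVOL2, a repressor of mesenchymal genes, had 4.60 in COLO-205 and 7.16 in OVCAR-3. OVOL1 and the intestinal factors CDX2 and HNF4A were marked in COLO-205 alone, with 5.63, 6.84 and 4.68.

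Each line marked 2 of 5 repressors of junction genes (40%, below the share of all genes in COLO-205, DU-145 and OVCAR-3 and above it in SKOV-3), and 1 of these was marked in every line. ZEB1 had a promoter peak in all 4 lines, with fold 10.7 in SKOV-3, 5.97 in DU-145, 4.79 for COLO-205 and 3.87 for OVCAR-3. SNAI1 was marked in COLO-205 (3.39), DU-145 (4.23) and OVCAR-3 (6.42), and TWIST1 in SKOV-3 alone (4.12, with a −log10 q of 5.61). ZEB2 and SNAI2 were marked in no line. These counts rest on 1 library per line and were not tested.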
